A study of Mus musculus with 6 samples.

Results

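The mitochondrial ribosomal protein genes, the nuclear genes for the proteins of the ribosome that works inside mitochondria, were chosen by name as every gene whose symbol begins with Mrpl or Mrps followed by a digit. The rule found 78 of the 18121 genes in the expression table, 49 Mrpl genes of the large subunit and 29 Mrps genes of the small subunit. The rule itself used no measured value, but it was chosen with earlier results of these data known. The samples were Lin-CD117+ cells, a bone marrow population rich in hematopoietic stem and progenitor cells (HSCs), taken from the femurs and tibias of 8-week-old female C57BL/6 mice by lineage depletion followed by selection for CD117. Bulk RNA was sequenced from 3 control samples (Ctrl) and from 3 samples kept with glycyrrhizic acid (GA), a triterpenoid saponin of liquorice root, for 24 h. All 6 samples were wild type and differed by label only in GA. The GA concentration used for these libraries, and whether the replicates came from separate animals or from separate wells of pooled cells, are not given in the sources used here, so the p-values below rest on the variation among these samples only, and that variation may be technical. Lineage-depleted CD117+ marrow holds many committed progenitors beside stem cells, and in bulk RNA fewer cells of a type and less RNA per cell cannot be told apart.

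Mitochondria keep a small genome whose messenger RNAs encode core subunits of the respiratory chain and of ATP synthase, and a dedicated ribosome translates them at the inner membrane. Its RNA is made in the mitochondrion, whereas all of its proteins are encoded in the nucleus, made in the cytosol and imported. The small subunit binds the messenger RNA and reads its codons, and the large subunit forms peptide bonds and leads the new chain to the membrane. Hematopoietic stem cells are known for relying mainly on glycolysis at rest and for raising mitochondrial respiration as they differentiate. By the known structure of the mammalian particle, 77 of the 78 genes encode ribosome subunits, 46 of them with a bacterial homolog and 31 found only in mitochondria. The remaining gene, Mrps36, carries the family name but encodes a component of the 2-oxoglutarate dehydrogenase complex. Mrps18a and Mrps30 are named for the small subunit and sit in the large one, and 5 further ribosomal proteins carry other names (Dap3, Chchd1, Aurkaip1, Ptcd3 and Gadd45gip1).

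Levels are given in FPKM, the number of fragments scaled for transcript length and library size. Summed over all genes they came to 508672 to 511802 in the Ctrl libraries and 515444 to 555449 in the GA libraries, with the highest sum in GA replicate 1. The read depth of each library is not given, and low values could not be matched to whole reads with the transcript lengths at hand. No counting interval was therefore computed. GA replicate 1 also differed from the other libraries in a dependence on transcript length. Across 10719 tested genes, the deviation of a gene from its Ctrl mean correlated with transcript length at a Spearman's rho of -0.59, -0.31 and -0.18 for GA replicates 1 to 3, against -0.059 to 0.066 in Ctrl. Shorter transcripts thus had relatively higher values in the GA libraries. This touches the mitoribosome genes directly, because their median transcript length was 1253 nt against 2811 nt for all tested genes. The counts and medians of the mitoribosome genes, and of the lists set beside them where they move, are therefore also given with the length trend of each library removed, with GA replicate 1 left out, or with both.

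All 78 genes were expressed, and all passed the filter of a mean of at least 1 FPKM. Their median Ctrl level was 29.6 FPKM, 30.3 for the large and 29.0 for the small subunit, against 12.6 FPKM for the 10912 tested genes. Although the ribosome holds its proteins in fixed proportions, the levels of their RNAs spanned 5.70 to 114 FPKM in the large and 6.71 to 89.4 FPKM in the small subunit. A total of 14 genes lay above 50 FPKM in Ctrl and 7 below 10 FPKM. The replicates were tight beside this span, with a median SD of 3.69% of the mean in Ctrl and 5.79% in GA. Even so, when the genes were ordered by their Ctrl mean, the Ctrl ranges stood apart for only 16 of the 77 pairs of neighbours. The order was therefore resolved between distant genes rather than between adjacent ones.

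The highest level belonged to Mrpl52, a large subunit protein found only in mitochondria, with 119, 112 and 111 FPKM in Ctrl replicates 1 to 3 and 171, 112 and 119 FPKM in GA replicates 1 to 3. Only GA replicate 1 stood clear of the Ctrl libraries. Mrpl54, another mitochondria-specific large subunit protein, had 100.1, 108 and 102 FPKM in Ctrl and 120.4, 117 and 105 FPKM in GA. Mrps21, the homolog of a bacterial small subunit protein, had 89.2, 89.7 and 89.1 FPKM in Ctrl and 117, 96.8 and 99.1 FPKM in GA. For Mrps21 the groups did not overlap, whereas for Mrpl54 the lowest GA value lay below the highest Ctrl value. Mrpl34, a bacterial-type large subunit protein, followed with 76.6, 79.5 and 80.5 FPKM in Ctrl and 99.4, 82.2 and 78.2 FPKM in GA. Mrpl42, which is mitochondria-specific, had 72.8, 74.1 and 72.3 FPKM in Ctrl and 88.2, 82.6 and 79.9 FPKM in GA. GA replicate 1 was the highest library for each of these genes, which were also short, with lengths of 418 nt for Mrpl52 to 664 nt for Mrpl42. At the low end, Mrpl35 had 5.64, 5.58 and 5.88 FPKM in Ctrl and 7.10, 6.08 and 6.50 FPKM in GA, with every GA library above every Ctrl library. Mrpl19, another bacterial-type large subunit protein, had 6.34, 6.31 and 6.17 FPKM in Ctrl and 6.66, 7.04 and 6.97 FPKM in GA, again with the groups apart. Mrpl1, whose bacterial homolog forms a stalk of the large subunit, had 7.04, 8.19 and 7.10 FPKM in Ctrl and 7.51, 7.49 and 7.29 FPKM in GA, with overlapping groups and equal means to within 1 SD.

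**Figure D1:**
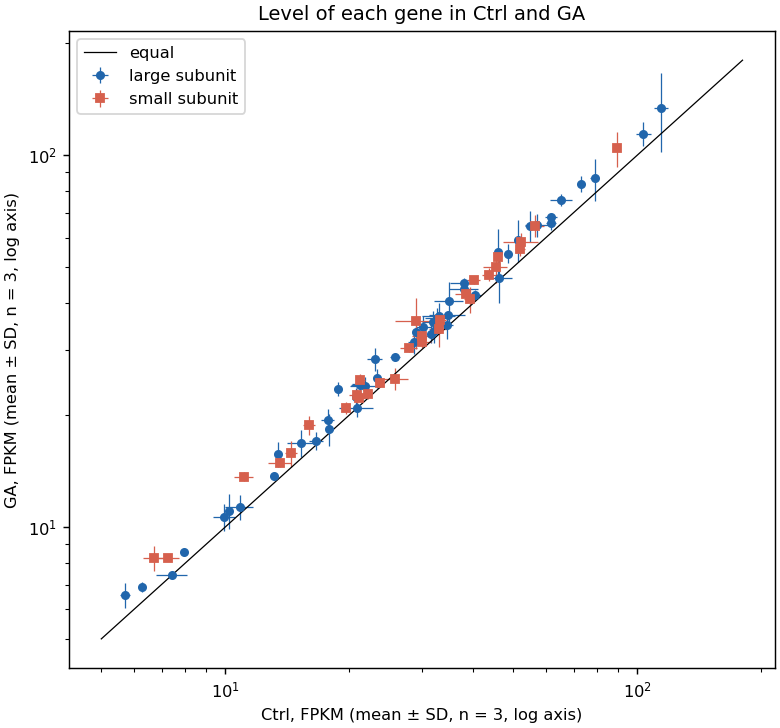
Mean FPKM of each of the 78 genes in Ctrl (horizontal, log axis) and GA (vertical, log axis), with bars for the SD over 3 libraries and the line of equal levels. Levels run from under 10 to over 100 FPKM in both subunits, and nearly all points lie slightly above the line.

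Whether GA moved these RNAs was asked by comparing the 3 GA with the 3 Ctrl libraries, gene by gene, on log2(FPKM + 1). The mitoribosome genes had slightly higher values in GA almost throughout, by a small amount each, and no single gene passed the test. The median difference was 0.13 (quartiles 0.088 to 0.19) on the log2(FPKM + 1) scale, against 0.012 over all tested genes, and the ratio of means ran from 0.971 to 1.25. The difference was above 0 for 77 of 78 genes, against 54.8% of the 10912 tested genes, and for Mrpl1 among the 77 it was 0.0004. In limma with Benjamini-Hochberg adjustment, 0 of the 78 genes and 0 of all 10912 passed an adjusted p of 0.05, and the lowest adjusted value was 0.135. Of the 78, 36 were higher and 0 lower in GA at an unadjusted p under 0.05, where 8.88% of all tested genes were higher and 4.63% lower. For 39 of the 78 genes all GA values exceeded all Ctrl values, against 11.6% of all tested genes, and for 0 genes all GA values lay below, against 8.29%. The groups overlapped for the other 39.

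The 3 GA libraries did not carry this equally. Summed over the 78 genes, Ctrl replicates 1 to 3 held 2598, 2583 and 2592 FPKM and GA replicates 1 to 3 held 3066, 2801 and 2779 FPKM. All GA sums lay above all Ctrl sums, by 11.2% in the mean, while the sum over all tested genes was 4.24% higher in GA. As a share of all FPKM in the library, the genes took 0.511%, 0.505% and 0.508% in Ctrl and 0.552%, 0.533% and 0.539% in GA. The shares did not overlap either. GA replicate 1 was the highest of the 6 libraries for 47 genes, GA replicate 2 for 10, GA replicate 3 for 17 and a Ctrl library for 4. This count was not made over all genes. GA replicates 1 to 3 lay above every Ctrl library for 66, 58 and 51 of the 78 genes. Over all tested genes the shares were 27.5%, 38.4% and 45.4%, so the order of the GA libraries was the opposite one. The median deviation from the Ctrl mean was 0.20, 0.11 and 0.10 on the log2(FPKM + 1) scale in GA replicates 1 to 3, and between -0.0091 and -0.00093 in the Ctrl libraries.

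**Figure D2:**
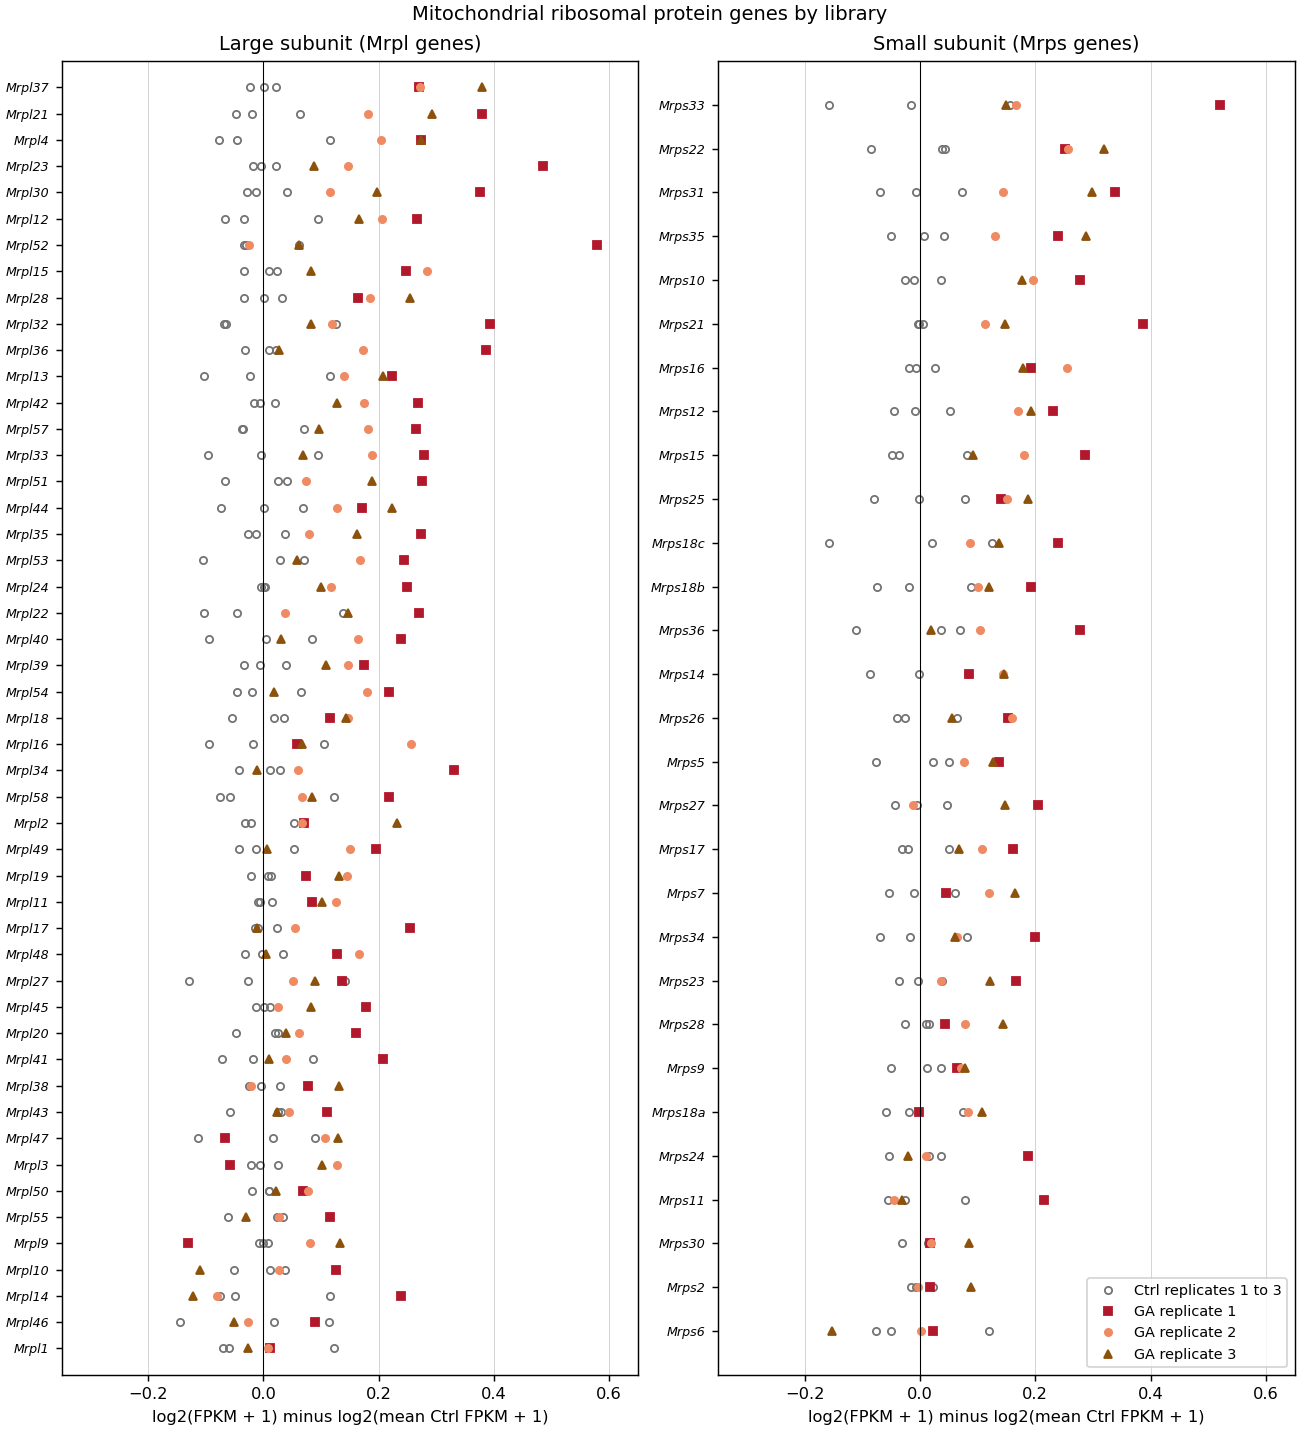
Deviation of each gene from its Ctrl mean, on the log2(FPKM + 1) scale, in each of the 6 libraries, with large subunit genes in one panel and small subunit genes in the other. The GA points lie mostly to the right of 0, and the GA replicate 1 point is the rightmost for 47 of the 78 genes.

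Left out of the fit, GA replicate 1 took part of the difference with it, and the spread within GA became smaller. Without it, 70 of the 78 genes were higher in GA against 64.8% of tested genes, 32 were higher at an unadjusted p under 0.05 against 15% of tested genes (6.05% were lower), and the median difference was 0.11. In that fit limma called 2 of the 78 genes higher in GA, Mrpl37 and Mrps16, where 0.495% of tested genes were called higher and 0.55% lower. With the length trend removed in all 6 libraries, 60 of the 78 were higher in GA against 51.4% of 10719 genes, and the median difference was 0.070 against 0.0027 over all genes. At an unadjusted p under 0.05, 19 genes were then higher (4.22% of all) and 1 lower (4.88% of all), and 0 passed the adjusted threshold in limma. Of the 78, 17 were higher at an unadjusted p under 0.05 both with the deposited and with the trend-free values. With both the trend removed and GA replicate 1 left out, 60 were higher against 52.8% of genes, 14 were higher and 3 lower at an unadjusted p under 0.05 (6.86% and 9.64% of all), and the median was 0.046. With every library rescaled to one sum, 68 were higher against 33.8% of genes, with a median of 0.075, and 17 were higher at an unadjusted p under 0.05 (2.64% of genes were higher and 7.57% lower). In that fit limma called 0 of the 78 at the adjusted threshold, where 0.00856% of genes were called lower. The values were above 0 for 56 of the 78 genes under each of the 16 alternative fits run for a gene. That count was not made over all genes, so it has no background to be read against. The median of the mitoribosome genes went from 0.13 to as little as 0.046. The median over the genes tested with the deposited values moved as well. It was 0.012 with those values, 0.037 without GA replicate 1, 0.0061 with both changes and -0.043 with rescaling.

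Among the large subunit genes, Mrpl37 had the smallest p. It encodes a mitochondria-specific protein of the large subunit and lies on chr4:107055874-107066868, minus strand (GRCm38). Its level was 18.5, 19.1 and 18.8 FPKM in Ctrl replicates 1 to 3 and 22.9, 22.9 and 24.8 FPKM in GA replicates 1 to 3. The groups were far apart beside their spread, and GA replicate 3, not GA replicate 1, was the highest library. The mean was 1.25 times the Ctrl mean, the largest ratio among the 78, and the difference was 0.31 (SE 0.051) on the log2(FPKM + 1) scale, with adjusted p = 0.135 in limma. Without GA replicate 1 the difference was 0.33 with adjusted p = 0.028, and over the 16 alternatives the limma adjusted p ran from 0.028 to 0.529. Mrpl37 was also the only one of the 78 genes called with the length trend removed and GA replicate 1 left out (0.26, limma adjusted p = 0.036), where 0.149% of genes were called higher and 1.02% lower. Mrpl21, a bacterial-type protein on chr19:3282901-3292837, plus strand, had 24.2, 22.7 and 22.3 FPKM in Ctrl and 30.3, 26.3 and 28.5 FPKM in GA. Its groups did not overlap, and its difference was 0.29 (SE 0.061, limma adjusted p = 0.174). Mrpl21 shares exon bases with Ighmbp2 on the other strand, and the counting is not stated to use strand, so reads of the overlap cannot be told apart.

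Mrpl4, whose bacterial homolog lines the peptide tunnel, had 41.2, 35.9 and 36.7 FPKM in Ctrl and 46.1, 43.8 and 46.1 FPKM in GA, a difference of 0.25 (SE 0.057). Mrpl28, another bacterial-type protein, had 29.7, 28.3 and 29.0 FPKM in Ctrl and 32.6, 33.2 and 34.8 FPKM in GA, a difference of 0.20 (SE 0.047). In both the lowest GA library lay above the highest Ctrl library. Mrpl12, the stalk protein known also to bind the mitochondrial RNA polymerase, had 69.9, 63.8 and 62.4 FPKM in Ctrl and 78.9, 75.5 and 73.4 FPKM in GA, a difference of 0.21 (SE 0.054). It shares exon bases with an annotated gene on the other strand, Gm16755. Mrpl44, a protein with a ribonuclease-like fold, had 21.3, 20.2 and 22.3 FPKM in Ctrl and 24.1, 23.3 and 24.99 FPKM in GA, a difference of 0.18 (SE 0.054), and shares exon bases with Wdfy1 on the other strand. Both genes had their groups apart. Mrpl45, which sits at the tunnel exit and helps to hold the ribosome at the inner membrane, had 20.8, 20.99 and 20.6 FPKM in Ctrl and 23.7, 21.2 and 22.1 FPKM in GA, a difference of 0.095 (SE 0.053). Mrpl58, a peptidyl-tRNA hydrolase that became part of the large subunit, had 20.7, 23.9 and 20.97 FPKM in Ctrl and 25.6, 23.0 and 23.2 FPKM in GA, a difference of 0.13 (SE 0.067). For Mrpl45 the groups were apart by a small margin, and for Mrpl58 they overlapped. The difference of Mrpl52, the most abundant member, was 0.21 (SE 0.13) with all libraries and 0.019 without GA replicate 1.

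Among the small subunit genes, Mrps16, a bacterial-type protein whose human gene is known from a disorder of mitochondrial translation, lies on chr14:20389304-20393634, minus strand. It had 46.8, 45.7 and 45.4 FPKM in Ctrl and 52.7, 55.0 and 52.1 FPKM in GA. The groups were apart, with GA replicate 2 the highest library. The difference was 0.21 (SE 0.043, limma adjusted p = 0.174). Without GA replicate 1 it was 0.22 with adjusted p = 0.048, and over the 16 alternatives the limma adjusted p ran from 0.048 to 0.578. Mrps22, a mitochondria-specific protein on chr9:98588730-98601660, minus strand, had 11.5, 11.4 and 10.4 FPKM in Ctrl and 13.4, 13.5 and 14.1 FPKM in GA. The lowest GA library lay well above the highest Ctrl library, and the difference was 0.28 (SE 0.058, limma adjusted p = 0.174). Mrps10, a bacterial-type protein, had 21.1, 21.8 and 20.9 FPKM in Ctrl and 26.0, 24.5 and 24.2 FPKM in GA, a difference of 0.22 (SE 0.050). Mrps12, the homolog of the bacterial protein in which streptomycin resistance arises, had 41.6, 38.8 and 39.8 FPKM in Ctrl and 47.2, 45.2 and 45.9 FPKM in GA, a difference of 0.20 (SE 0.046). In both the groups were apart. Mrps5, known from longer life in mouse strains with lower expression and in worms after its knockdown, had 28.9, 26.4 and 28.3 FPKM in Ctrl and 30.7, 29.5 and 30.5 FPKM in GA, a difference of 0.11 (SE 0.050), with the groups apart by less than 1 FPKM.

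Mrps6, a bacterial-type small subunit protein on chr16:92058270-92112227, plus strand, was the only one of the 78 with a difference below 0 on the log2(FPKM + 1) scale. It had 24.4, 24.8 and 28.0 FPKM in Ctrl and 26.2, 25.8 and 23.1 FPKM in GA, so the groups overlapped, although GA replicate 3 was the lowest of the 6 libraries. The difference was -0.04 (SE 0.068), and it was 0.021 without Ctrl replicate 3. With the length trend removed its difference was -0.16, the only downward one of the 78 with an unadjusted p under 0.05 in limma. Its annotated span also holds exon bases of Slc5a3, the gene of an inositol transporter, on the same strand.

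The starts of the 4 genes with the smallest p, Mrpl37, Mrps16, Mrps22 and Mrpl21, and of Mrps6, the one gene with a difference below 0, are shown because nuclear factors that bind near the start are known to control many genes of mitochondrial proteins. The windows run from 250 bases before to 50 bases after the start, from RefSeq on GRCm38.p6, 5′ to 3′ along the gene, with motif matches in capitals. The motifs searched on both strands were an ETS site (CCGGAAG), of the kind bound by GABP, a YY1 core (ATGGCGGC), the palindromic NRF1 site, the E-box (CACGTG) and the CCAAT box (CCAAT, not capitalised).
Mrpl37, chr4:107066817-107067116, minus strand: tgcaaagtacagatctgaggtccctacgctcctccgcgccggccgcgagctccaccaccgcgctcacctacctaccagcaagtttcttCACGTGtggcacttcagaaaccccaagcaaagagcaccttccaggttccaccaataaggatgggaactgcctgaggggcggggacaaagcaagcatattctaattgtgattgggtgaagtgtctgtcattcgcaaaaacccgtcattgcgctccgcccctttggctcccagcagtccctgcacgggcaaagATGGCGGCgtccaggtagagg
Mrps16, chr14:20393585-20393884, minus strand: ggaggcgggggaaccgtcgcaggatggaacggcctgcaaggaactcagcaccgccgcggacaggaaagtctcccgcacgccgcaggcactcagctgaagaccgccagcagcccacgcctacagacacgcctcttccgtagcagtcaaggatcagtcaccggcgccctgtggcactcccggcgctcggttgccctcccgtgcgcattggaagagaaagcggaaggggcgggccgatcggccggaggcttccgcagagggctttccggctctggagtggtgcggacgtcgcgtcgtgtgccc
Mrps22, chr9:98601630-98601929, minus strand: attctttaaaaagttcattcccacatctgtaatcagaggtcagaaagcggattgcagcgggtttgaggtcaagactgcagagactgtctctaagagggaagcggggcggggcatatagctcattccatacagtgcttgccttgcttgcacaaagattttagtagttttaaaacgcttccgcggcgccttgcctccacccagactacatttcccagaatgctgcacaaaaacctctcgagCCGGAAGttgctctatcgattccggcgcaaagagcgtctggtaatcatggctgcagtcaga
Mrpl21, chr19:3282792-3283091, plus strand: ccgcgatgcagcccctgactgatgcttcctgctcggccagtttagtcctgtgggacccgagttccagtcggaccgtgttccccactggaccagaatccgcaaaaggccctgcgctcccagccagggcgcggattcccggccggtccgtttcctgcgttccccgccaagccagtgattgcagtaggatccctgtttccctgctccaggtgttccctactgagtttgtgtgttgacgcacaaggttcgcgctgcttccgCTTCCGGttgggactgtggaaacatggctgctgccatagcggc
Mrps6, chr16:92058086-92058385, plus strand: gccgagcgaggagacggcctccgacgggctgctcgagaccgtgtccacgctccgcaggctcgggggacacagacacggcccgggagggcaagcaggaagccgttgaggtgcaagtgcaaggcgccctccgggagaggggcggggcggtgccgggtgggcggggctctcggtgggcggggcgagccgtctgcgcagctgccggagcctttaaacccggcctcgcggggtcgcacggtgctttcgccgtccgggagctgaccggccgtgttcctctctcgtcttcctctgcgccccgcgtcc

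Mrpl37 held a YY1 core that began 30 bases after the start and an E-box that began 162 bases before it, while Mrps22 and Mrpl21 each held an ETS match close to the start, which in Mrpl21 lies on the strand opposite to the one printed and so appears in the window as its reverse complement. In the windows of Mrps16 and Mrps6 none of the 4 capitalised motifs occurred. A promoter was matched for 69 of the 78 genes and for 8915 tested genes. The ETS site occurred in 24 of the 69 (34.8%) against 19.9% of all promoters of tested genes, and the YY1 core in 12 (17.4%) against 5.50%. The NRF1 site occurred in 3 (4.35%) against 2.27%, the E-box in 5 (7.25%) against 10.5% and the CCAAT box in 27 (39.1%) against 39.4%. A total of 5 promoters held both an ETS site and a YY1 core, and in 0 of them did the matches share bases. The GA difference varied little with these letters. Its median was 0.15 with and 0.12 without an ETS site, 0.11 with and 0.14 without a YY1 core, and 0.14 with and 0.12 without a CCAAT box. A match is a description of the sequence and no measure of binding.

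The Mrps18 family gives 3 related proteins to one ribosome, Mrps18a in the large subunit and Mrps18b and Mrps18c in the small one. Mrps18a had 29.7, 28.8 and 31.8 FPKM in Ctrl and 30.1, 31.9 and 32.5 FPKM in GA, a difference of 0.06 (SE 0.054). Mrps18b had 40.9, 36.5 and 37.9 FPKM in Ctrl and 44.0, 41.3 and 41.9 FPKM in GA, a difference of 0.14 (SE 0.054). Mrps18c had 53.1, 46.8 and 57.1 FPKM in Ctrl and 61.9, 55.6 and 57.6 FPKM in GA, a difference of 0.16 (SE 0.072). Only Mrps18b had its groups apart, and none of the family passed the adjusted threshold in limma. Mrps18c was the most abundant of them in every library. With the length trend removed the value of Mrps18a was -0.05.

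The large and the small subunit, taken from the gene symbol, were compared to ask whether one moved more than the other. All 49 large subunit genes and 28 of the 29 small subunit genes had differences above 0, 22 and 14 of them passed an unadjusted p of 0.05, and 24 and 15 had all GA values above all Ctrl values. The median difference was 0.14 for the large and 0.12 for the small subunit. The gap between the medians, 0.013 on the log2(FPKM + 1) scale, was smaller than the SD of 0.027 between libraries of one group in the same quantity. By library it was 0.026, 0.015 and -0.040 in GA replicates 1 to 3 and 0.0028, 0.014 and -0.013 in Ctrl replicates 1 to 3, so its sign differed between the GA libraries. The ratio of the summed large to the summed small subunit FPKM was 1.85, 1.87 and 1.83 in Ctrl and 1.90, 1.86 and 1.83 in GA. The groups overlapped in that ratio, and no difference between the subunits larger than the spread was seen. With the length trend removed the medians were 0.069 and 0.071. The genes were also sorted by the known structure. This puts Mrps18a and Mrps30 in the large subunit, leaves Mrps36 out and adds the 5 proteins with other names. Then 52 of 52 large and 29 of 30 small subunit genes were above 0, with medians of 0.13 and 0.12. Sorting the proteins by origin gave a like picture, with 45 of 46 bacterial-type genes above 0 (median 0.13) and 31 of 31 mitochondria-specific genes above 0 (median 0.14).

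**Figure D3:**
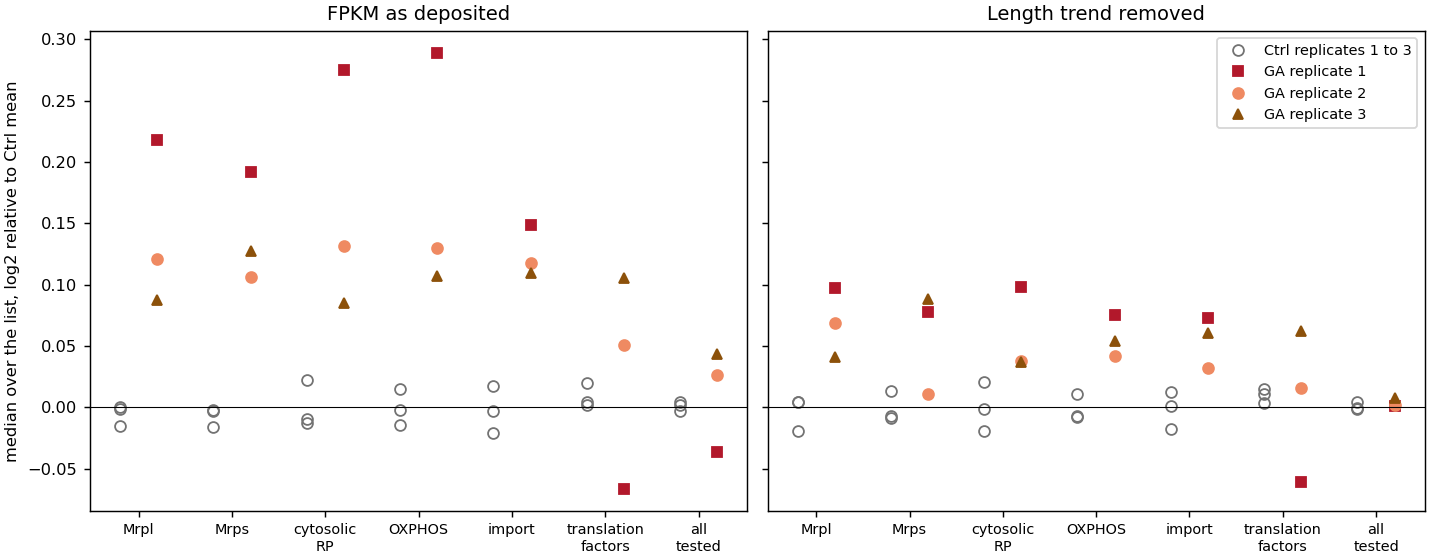
Median deviation from the Ctrl mean, on the log2(FPKM + 1) scale, of the large and small subunit genes, the cytosolic ribosomal protein genes, the oxidative phosphorylation subunits (OXPHOS), the import genes, the translation factors and all tested genes in each of the 6 libraries, for the deposited values and with the length trend removed. The large and small subunit medians are highest in GA replicate 1 (0.22 and 0.19), and every GA median of the large and small subunit comes closer to 0 once the trend is removed.

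Within the mitoribosome genes the relation to length was weaker than across all genes. Spearman's rho over the 78 genes between length and deviation was -0.36, 0.041 and 0.15 in GA replicates 1 to 3. These genes share libraries and are not independent, so no p is given. Split by length into 3 sets of 26 genes, from short to long, the median differences were 0.15, 0.14 and 0.12. With the trend of all genes removed they were 0.025, 0.061 and 0.11, with 16, 19 and 25 genes above 0. The correction thus took most from the shortest genes and little from the longest. After it, rho over the 78 genes was 0.50, 0.48 and 0.22 in GA replicates 1 to 3, against -0.20 to 0.13 in Ctrl. Longer members then had relatively higher values in GA, so the corrected values of these genes are not free of a relation to length. Mrps35, a mitochondria-specific small subunit protein with a length of 4162 nt, had 16.5, 16.0 and 15.4 FPKM in Ctrl and 19.0, 17.6 and 19.7 FPKM in GA, and its difference was 0.22 before and 0.24 after the correction. Mrpl54, with 604 nt, went from 0.14 to 0.0019. Both were picked after their values were seen, as examples of a long and a short gene.

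**Figure D4:**
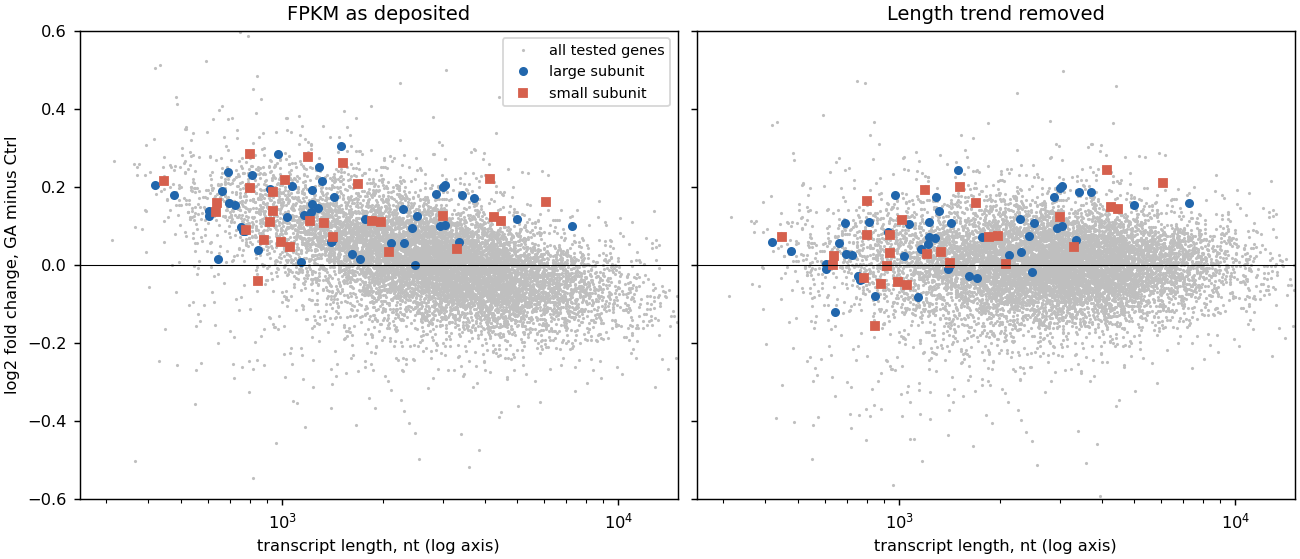
Difference between GA and Ctrl on the log2 scale of each gene against its transcript length in nt (log axis), for the 78 genes and for all tested genes, with the deposited values and with the length trend removed. Among the 78 genes the shortest lose most of their difference when the trend is removed, the median of the 26 shortest going from 0.15 to 0.025.

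The other genes of mitochondrial translation were followed in lists by role, to be read against the 54.8% of all tested genes above 0 and the 8.88% higher at an unadjusted p under 0.05. The 5 ribosomal proteins with other names were all above 0, with a median of 0.034 and 1 at an unadjusted p under 0.05, while 3 were above 0 (median 0.0042) once the length trend was removed and 4 (median 0.076) without GA replicate 1. The gene at that p was Dap3, the GTP-binding small subunit protein first known from cell death, which had 26.6, 26.8 and 28.6 FPKM in Ctrl and 28.5, 30.9 and 31.5 FPKM in GA, with overlapping groups. Of 27 tested genes of ribosome assembly and rRNA modification, 21 were above and 6 below 0, with 4 at an unadjusted p under 0.05 and a median of 0.071. Mpv17l2, an inner membrane protein needed for assembly, went from 27.7 ± 2.64 to 32.4 ± 0.779 FPKM (SD, n = 3 each), and Rpusd4, a pseudouridine synthase, from 7.81 ± 0.226 to 9.21 ± 0.826 FPKM. In both the groups were apart. Of 18 translation factors and related proteins 14 were above 0 (median 0.029), and of 20 genes for mitochondrial aminoacyl-tRNA synthetases and their relatives 15 were (median 0.080), each list with 1 higher at an unadjusted p under 0.05, a smaller share than that of all tested genes. These were Oxa1l, which inserts new chains into the inner membrane (27.7 ± 0.686 to 30.2 ± 1.34 FPKM), and Qrsl1, part of the enzyme that makes glutaminyl-tRNA (3.28 ± 0.136 to 3.98 ± 0.145 FPKM). With the deposited values the medians of these lists lay below the 0.13 of the mitoribosome genes. The order depended on GA replicate 1. Without it the medians were 0.11 for assembly, 0.090 for the factors and 0.10 for the synthetases against 0.11 for the mitoribosome genes, and with the length trend also removed they were 0.056, 0.050 and 0.067 against 0.046. With the trend removed and all libraries kept they were 0.030, 0.0077 and 0.057 against 0.070. The difference between lists was not tested.

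Upstream, 14 tested genes of mitochondrial transcription and its nuclear regulators were divided, 6 above and 8 below 0, with a median of -0.010. Without GA replicate 1 this became 9 above and 5 below 0 (median 0.034), and with the length trend removed 7 and 7 (median -0.0051). Yy1, the factor that binds the YY1 core, had 41.4, 39.7 and 39.7 FPKM in Ctrl and 33.1, 34.7 and 36.2 FPKM in GA, with every GA library below every Ctrl library. Its difference was -0.21 (SE 0.049, limma adjusted p = 0.189). Gabpb1, a subunit of the ETS factor GABP, had 24.1, 25.6 and 23.9 FPKM in Ctrl and 28.6, 26.1 and 26.6 FPKM in GA, with the groups apart in the other direction (0.14, SE 0.053). Neither passed the adjusted threshold. Downstream, 24 of 25 mitochondrial import genes were above 0, with 10 at an unadjusted p under 0.05 and a median of 0.13, against 54.8% and 8.88% of all tested genes. Once the length trend was removed 20 were above 0, with 5 higher at an unadjusted p under 0.05 against 4.22% of all genes and a median of 0.059. Without GA replicate 1 all 25 were above 0 (median 0.093), with 12 higher at an unadjusted p under 0.05 against 15% of all genes. In that fit limma called 2 of the 25 higher at the adjusted threshold, against 0.495% of all genes. Pam16, of the import motor, went from 35.3 ± 0.899 to 45.2 ± 5.28 FPKM (SD, n = 3 each), and Timm10, a chaperone of the space between the membranes, from 10.6 ± 0.431 to 14.2 ± 2.29 FPKM. Among 15 tested genes of mitochondrial DNA replication and protein quality control, 11 were above 0 with 2 at an unadjusted p under 0.05, Clpp (28.6 ± 0.430 to 32.1 ± 0.285 FPKM), a matrix protease, and Phb2 (137 ± 3.25 to 146 ± 2.13 FPKM), a prohibitin of the inner membrane. The median of this list was 0.030, 0.0076 with the trend removed and 0.068 without GA replicate 1.

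The genes of the cytosolic ribosome and of the respiratory chain were read beside these values. The cytosolic ribosomal protein genes, also short and abundant, had 82 of 82 tested genes above 0, 48 at an unadjusted p under 0.05 and a median of 0.16. The nuclear subunits of oxidative phosphorylation, which work with the products of mitochondrial translation, had 76 of 76 above 0, 49 at an unadjusted p under 0.05 and a median of 0.16. Their medians with the length trend removed were 0.056 and 0.054, with 69 of 81 and 68 of 76 genes above 0 and 7 and 5 higher at an unadjusted p under 0.05, where 51.4% of all genes were above 0 and 4.22% higher. For the oxidative phosphorylation subunits that count was near the share of all genes. The mitoribosome genes then had a median of 0.070, with 60 of 78 above 0 and 19 higher at that p. This order of the lists did not hold without GA replicate 1. The medians were then 0.110 for the mitoribosome, 0.112 for the cytosolic ribosomal and 0.113 for the oxidative phosphorylation genes. At that p 32 of 78, 55 of 82 and 48 of 76 were higher, against 15% of all genes. With both changes the medians were 0.046, 0.037 and 0.049. With the deposited values all GA values exceeded all Ctrl values for 39 of 78, 62 of 82 and 46 of 76, against 11.6%. Without GA replicate 1 limma called 2 mitoribosome, 1 cytosolic ribosomal and 1 oxidative phosphorylation gene higher at the adjusted threshold, against 0.495% of all genes. The lists were not tested against each other, and every value of the 3 lists comes from the same 6 libraries.

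Markers of mature and committed cells were read beside these results, since the gate does not purify stem cells. All 11 tested neutrophil granule genes were higher in GA (median 0.25), with summed levels of 1701 to 1922 FPKM in Ctrl and 2097 to 2208 FPKM in GA that did not overlap. The list held S100a8 and S100a9, which the study had already reported as upregulated in GA-treated Lin-CD117+ cells. S100a8 had 243, 269 and 274 FPKM in Ctrl and 388, 325 and 338 FPKM in GA. S100a9 had 396, 389 and 447 FPKM in Ctrl and 518, 512 and 538 FPKM in GA. Of 12 megakaryocyte and platelet genes 9 were lower (median -0.14), with sums of 21883 to 22572 FPKM in Ctrl and 19764 to 27041 FPKM in GA. Without GA replicate 1 all 12 were lower (median -0.19) and limma called 5 of them, and with the length trend also removed it called 9 (median -0.23), where 0.55% and 1.02% of all genes were called lower. In those fits limma called 3 and 2 of the 11 neutrophil granule genes higher, where 0.495% and 0.149% of all genes were called higher. It also called 3 and 2 of the 7 tested mast cell and basophil genes higher. The median of the neutrophil granule genes with the trend removed was 0.14, all 11 staying above 0. The 11 tested stem and multipotent progenitor genes were divided, 6 above and 5 below 0, and their sums of 614 to 626 FPKM in Ctrl and 594 to 619.9 FPKM in GA overlapped, while Mecom, a stem cell transcription factor, stood at 0.605 FPKM in the mean of all libraries. Of 7 tested mast cell and basophil genes 6 were above 0, with sums of 138 to 144 FPKM in Ctrl and 156 to 173 FPKM in GA that did not overlap, and 4 of the 7 were above 0 with the trend removed. Of 9 tested monocyte genes 3 were above 0 and of 5 tested erythroid genes 2 were, with overlapping sums in both lists. Without GA replicate 1, 8 of the 9 monocyte genes were above 0, the median going from -0.014 to 0.13, and 1 of the 5 erythroid genes was. Of the B cell markers only Cd79b reached a mean of 1 FPKM (4.04 FPKM, difference 0.31, groups apart), and Pax5 stood at 0.00833 FPKM. Of the T and NK cell markers Nkg7 (18.6 FPKM, difference 0.30) and Cd4 (4.10 FPKM, difference -0.07) passed the filter, and Cd3g stood at 0.0167 FPKM. Of the stroma and endothelium markers Pecam1 (89.6 FPKM, difference -0.14), Kdr (3.62 FPKM, -0.19) and Col1a2 (1.16 FPKM, -0.11) passed it, all with lower values in GA, while Col1a1 stood at 0.137 and Cxcl12 at 0.025 FPKM. The neutrophil granule and mast cell genes had higher values in GA as the mitoribosome genes did and the megakaryocyte genes had lower ones, and their part in the result was not tested.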

How the data were processed

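RNA was extracted with TRIzol and sequenced on a BGISEQ-500 (DNBSEQ) from 3 Ctrl and 3 GA samples of Lin-CD117+ cells. Per the submitters' notes and the study's methods, reads were aligned with HISAT2 2.0.4 and Bowtie2 2.2.5 to mm10 and quantified with RSEM, and the authors deposited one table of FPKM values with 2 decimals. The gene annotation, read depth and strand setting are not given in the sources used here. The table also holds 2 group means of the authors, which were not used. FPKM is a share of its library, and errors in the length or fragment-bias correction stay in it. Only 48.7 to 56.7% of low values came within 0.15 of whole reads, so no count test was run. The lengths behind this check may differ from those of the authors, so it cannot show whether the values stem from whole reads.

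The 10912 genes whose mean over the 6 libraries reached 1 FPKM were tested on log2(FPKM + 1) with limma 3.58.1 in R 4.3.3 (trended prior variance, 6 libraries, no covariate, Benjamini-Hochberg over all tested genes, two-sided). Fold changes on this scale understate the change of low genes. Transcript lengths are medians from GENCODE M21 (GRCm38) and were found for 98.2% of tested genes. The length trend was removed from each library by loess (span 0.5). Same-numbered replicates did not stand out in the correlation of their deviations (r -0.17, -0.13 and 0.0039, against -0.13 to 0.19 for the other pairs). These values cannot show whether same-numbered samples shared an animal or a preparation, which the sources do not give. Positions came from GENCODE and promoters from RefSeq, matched by symbol or gene ID. In all, 33 of the 78 genes share exon bases with another annotated gene, 28 with one on the other strand, and 5 annotated pseudogenes are named after members, so their reads may be divided. Named genes were the 8 with the smallest p in each direction, the 5 highest and 3 lowest means, genes called with or without GA replicate 1, the Mrps18 family, 6 members with known roles, and up to 2 genes with the smallest p of each other list. The members and lists were chosen with earlier results of these data known. Alternatives were another pseudocount, filter, scaling, length correction, prior variance, a replicate block, subunits as in the structure, and each library left out. The scripts were tested on simulated data.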

Additional observations from a re-analysis of the deposited data

How the results depend on the processing

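Of 400 values of the 25 named mitoribosome genes under the 16 alternatives, 383 kept direction and side of the threshold, and the exceptions and all counts that moved follow. The cause of these moves was not tested. With the deposited values 0 of the 78 genes passed the adjusted threshold, and some of the 25 were named for their small p. The count of 383 therefore does not measure how the other genes held. With each library rescaled to a sum of 1000000, 1 gene of all passed the adjusted threshold in limma, 17 mitoribosome genes were higher at an unadjusted p under 0.05, and the median difference was 0.075 (large subunit 0.079, small 0.066). With the length trend removed, 975 genes of all (1474 with the deposited values) and 19 mitoribosome genes passed the unadjusted p, and the median was 0.070 (large 0.069, small 0.071). With the trend removed and GA replicate 1 left out, 125 genes of all and 1 mitoribosome gene passed the adjusted threshold, 14 were higher at the unadjusted p, and the median was 0.046 (large 0.050, small 0.038). Mrpl37 passed it in that fit (0.26) and, with Mrps16, without GA replicate 1 (0.33 and 0.22). Leaving out each library in turn gave 0 to 114 genes of all at the adjusted threshold and 897 to 2300 at the unadjusted p, both highest without GA replicate 1, and, for the mitoribosome genes, 0 to 2 at the adjusted threshold, 25 to 38 higher at the unadjusted p, a median of 0.11 to 0.15 and a large minus small difference of -0.0067 to 0.030.

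Directions turned for 5 named genes, among them Mrpl34 and Mrpl52, whose differences with the deposited values were 0.13 and 0.21. Mrpl1 was -0.055 with rescaling, -0.0046 with the median of ratios, -0.018 with the trend removed, -0.045 with that and GA replicate 1 left out, and between -0.034 (without Ctrl replicate 1) and 0.063 (without Ctrl replicate 2) when 1 library was left out. Mrpl34 was -0.010 with the trend removed and -0.053 with both changes, Mrpl52 -0.049 with both, and Mrps18a -0.049 with the trend removed. With 1 library left out, Mrps6 ranged from -0.077 (without Ctrl replicate 1) to 0.021 (without Ctrl replicate 3), and was 0.015 without GA replicate 3. With the trend removed it was -0.16. With the replicate block, 0 genes passed the adjusted threshold in limma. In that fit 35 mitoribosome genes were higher at an unadjusted p under 0.05, against 36 without the block. Whether the replicate numbers pair the samples is not given. The read depth is not given, so its part in the precision of low values is unknown.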
